A study of Mus musculus with 14 samples.

Results

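Ahr, Gpc1, Rab3b and Dclk1 were examined as 4 genes of the 35976 gene symbols counted in sorted cochlear supporting cells (SCs). They were chosen from these same counts, because their level was lower with compound E at P0 and little changed at P6. The values that chose them, the ratios of compound E to DMSO at both ages, are therefore given as a description without a p-value, and the same holds for the difference between the ages and for the DMSO levels that enter those ratios. Where a fit over all genes called one of the 4, the call is stated beside the share of all genes called, and nothing is read from it.

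SCs were sorted as EGFP+ cells from cochlear explants of Lfng-EGFP mice (strain B6;FVB, a GENSAT bacterial artificial chromosome reporter) after 24 h of culture. Compound E (CompE), an inhibitor of the γ-secretase that cleaves Notch receptors, was added at 2 μM in DMSO, and controls received DMSO alone. There were 4 CompE and 4 DMSO libraries at P0 (explants taken at P0 to P1) and 3 CompE and 3 DMSO libraries at P6, and all 4 groups carried the reporter. Organs were pooled before sorting, cDNA was amplified with the SMART-Seq v4 PLUS kit without molecular identifiers, and the labels do not name the animals behind each library, so the spread reported is the spread between these libraries. The EGFP gate rests on the promoter of Lfng, itself a Notch target gene, and in sorted bulk RNA fewer cells of a type and less RNA per cell cannot be told apart. The batches named in the labels each held both treatments but no batch held both ages, so age and batch cannot be told apart.

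Notch receptors signal when γ-secretase frees their intracellular domain, which joins RBPJ on DNA and turns on genes such as those of the Hes and Hey families. In the cochlea, hair cells (HCs) present Notch ligands to the SCs around them, and this signal holds SCs in their fate. None of the 4 genes belongs to the Hes and Hey families: Ahr encodes the aryl hydrocarbon receptor, a ligand-activated transcription factor that pairs with ARNT. Gpc1 encodes glypican 1, a heparan sulfate proteoglycan anchored to the cell surface that binds growth factors. Rab3b encodes a small GTPase of the Rab3 group, which acts in regulated vesicle secretion. Dclk1 encodes a kinase with doublecortin domains that bind microtubules.

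The genes lie on different chromosomes of GRCm38 (GENCODE annotation). Ahr (ENSMUSG00000019256) spans chr12:35497974-35535038 on the minus strand, with 6163 exonic bases. Gpc1 (ENSMUSG00000034220) spans chr1:92831645-92860779 on the plus strand, with 5159 exonic bases. Rab3b (ENSMUSG00000003411) spans chr4:108879063-108943324 on the plus strand, with 3524 exonic bases. Dclk1 (ENSMUSG00000027797) spans chr3:55242364-55539068 on the plus strand, with 15296 exonic bases and 15 annotated transcripts. Each shares some exonic sequence with a gene on the other strand, and whether counting used the strand is not given in the sources used here. The largest shared stretch was 977 bases of Gpc1 with Ankmy1, 18.9% of the exonic length of Gpc1. Ankmy1 had 2 to 169 counts per library, against 5853 to 77093 for Gpc1. Rab3b shared 317 bases with 8030443G20Rik, which had 0 to 4 counts against 1524 to 12563 for Rab3b. Ahr and Dclk1 shared at most 2.06% of their exonic length with other annotated genes.

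Upstream sequences were in the RefSeq promoter table (GRCm38.p6) for 2 of the 4 genes, Rab3b with 1 start and Dclk1 with 2, and none was in the table for Ahr and Gpc1. The 250 bases before each start are shown because the members were lower together at P0 and RBPJ and AHR each have a known motif. Capitals mark TGGGAA, the core motif of RBPJ, and GCGTG, the core motif of AHR with ARNT. Start 1 of Dclk1 lies after chr3:55242114-55242363, start 2 of Dclk1 after chr3:55461478-55461727, and the start of Rab3b after chr4:108878820-108879069, all on the plus strand.
Dclk1 start 1: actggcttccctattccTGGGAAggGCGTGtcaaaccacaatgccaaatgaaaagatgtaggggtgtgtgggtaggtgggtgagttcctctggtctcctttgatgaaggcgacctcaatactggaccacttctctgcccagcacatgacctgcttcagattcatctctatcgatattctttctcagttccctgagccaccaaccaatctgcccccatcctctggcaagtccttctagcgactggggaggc
Dclk1 start 2: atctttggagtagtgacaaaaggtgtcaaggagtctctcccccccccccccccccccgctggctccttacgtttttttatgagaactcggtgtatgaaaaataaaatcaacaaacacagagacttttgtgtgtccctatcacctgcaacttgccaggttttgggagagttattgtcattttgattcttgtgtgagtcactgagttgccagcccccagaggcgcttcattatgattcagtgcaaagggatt
Rab3b start 1: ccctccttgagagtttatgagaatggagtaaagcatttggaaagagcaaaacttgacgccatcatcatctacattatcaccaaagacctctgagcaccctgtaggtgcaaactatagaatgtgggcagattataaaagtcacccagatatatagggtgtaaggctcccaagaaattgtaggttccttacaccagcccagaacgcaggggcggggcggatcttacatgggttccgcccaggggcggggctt
Dclk1 start 1 held TGGGAA at position -233 and GCGTG at position -225 from the start, both on the plus strand. No other match was found on either strand in the 300-base windows of the 3 starts. These were also searched for CACGTG and CACGNG, boxes bound by HES and HEY repressors (CACGNG includes CACGTG). Other sites of these repressors were not searched for. Among all 32851 windows of the table, 25.6% held TGGGAA, 32.4% GCGTG, 27.5% CACGNG and 7.15% CACGTG. A match is a description of these letters, and counts per gene do not separate the starts of Dclk1.

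Levels are given as RPM, the count of a gene divided by all reads counted on genes in that library and scaled to the usual unit of reads per 1000000. Those totals were 19415066 to 44430063 reads with CompE and 26429966 to 39947189 with DMSO at P0, and 25139307 to 28705167 and 23972228 to 41207627 at P6. With 1025 to 77093 counts behind each value of the 4 genes, the spread between libraries rather than counting error set the precision. The 12 listed SC markers summed to 19062 to 20911 RPM with CompE and 13038 to 21600 RPM with DMSO at P0, and to 15260 to 20640 and 20424 to 27528 RPM at P6, above the sum of every other marker list in all 14 libraries. Most of that sum was Tectb, with 13319 and 7866 RPM at P0 and 13936 and 16186 RPM at P6, while the defining markers Sox2 (382 and 653 RPM at P0, 141 and 239 RPM at P6) and Prox1 (397 and 477 RPM, 62.0 and 106 RPM) were present in each group. With CompE 8 of the 12 SC markers were below DMSO at P0 and 12 of 12 at P6 in log2 fold change, and Fabp7, a fatty acid binding protein, was called lower at P0 (log2 fold change -3.38, SE 0.392, edgeR adjusted p = 0.00138). The SC sum was lower with CompE in each of the 3 P6 pairs. The 10 HC markers summed to 1179 to 2205 RPM with CompE and 608 to 1371 RPM with DMSO at P0, and to 504 to 1118 and 382 to 985 RPM at P6. The HC sum was higher with CompE in each of the 4 P0 pairs and each of the 3 P6 pairs. In log2 fold change 1 of the 10 HC markers was below 0 at P0 (median 0.59) and 4 of 10 at P6 (median 0.12). At P0 no HC marker was called in edgeR's quasi-likelihood test (adjusted by Benjamini-Hochberg to p of 0.01 or less, with 2-fold or more in size). DESeq2 called Atoh1 higher, and Atoh1 and Pou4f3 were called higher when libraries of one replicate number were compared as pairs. The 6 mesenchyme markers summed to 1207 to 1350 RPM with CompE and 931 to 1136 RPM with DMSO at P0, and to 897 to 4060 RPM at P6, with the highest value of each P6 group in replicate 3. The higher P0 sum with CompE came from Lum (1051 and 754 RPM), and 5 of the 6 were below 0 in log2 fold change (median -0.48). Glial markers summed to 383 to 602 RPM, neuronal markers to 91.5 to 271 RPM, and those of macrophages, endothelium and blood at or below 77.2 RPM in every library. The part of other cell types in the values of the 4 genes was not tested.

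Ahr, the ligand-activated partner of the ARNT proteins, was the least affected of the 4 at P0. It stood at 108, 116, 107 and 121 RPM in DMSO replicates 1 to 4 at P0 and at 54.9, 67.2, 57.1 and 65.7 RPM in the CompE replicates 1 to 4. All 4 CompE libraries were below all 4 DMSO libraries, and the means were 61.2 ± 6.15 against 113 ± 6.55 RPM (SD, n = 4 each). The edgeR log2 fold change, the log2 of the ratio of CompE to DMSO, was -0.92 (SE 0.122), which is 1.89-fold lower and short of 2-fold. At P6 Ahr stood at 66.0, 36.9 and 70.0 RPM in the DMSO replicates 1 to 3 and at 74.5, 43.0 and 73.4 RPM in the CompE replicates. The groups overlapped, replicate 2 was the lowest library under both treatments, and the log2 fold change was 0.15 (SE 0.281).

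Gpc1, the cell surface proteoglycan, had the highest level of the 4 per exonic length and varied least with CompE at P0. DMSO replicates 1 to 4 at P0 had 1491, 1930, 1573 and 2026 RPM of Gpc1, and CompE replicates 1 to 4 had 652, 734, 703 and 676 RPM. The treatments were far apart at this age, and no CompE library came near the lowest DMSO library. Means were 691 ± 35.0 RPM with CompE and 1755 ± 263 RPM with DMSO (SD, n = 4 each), and the log2 fold change was -1.39 (SE 0.150), or 2.61-fold lower. At P6 Gpc1 had 523, 225 and 233 RPM in the DMSO replicates 1 to 3 and 492, 213 and 213 RPM in the CompE replicates. Replicate 1 stood above the others under both treatments, the ranges overlapped, and the log2 fold change was -0.09 (SE 0.447).

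Rab3b, the secretory GTPase, had the largest fold decrease of the 4 at P0. Its levels were 232, 314, 166 and 256 RPM in DMSO replicates 1 to 4 and 51.2, 88.4, 60.7 and 60.5 RPM in CompE replicates 1 to 4. No CompE library reached the lowest DMSO library, although the DMSO libraries themselves varied with a coefficient of variation of 25.4%. The means were 65.2 ± 16.1 and 242 ± 61.6 RPM (SD, n = 4 each), and the log2 fold change was -1.93 (SE 0.239), or 3.80-fold lower. At P6 Rab3b had 117, 145 and 77.0 RPM in DMSO replicates 1 to 3 and 102, 104 and 55.5 RPM in the CompE replicates. Replicate 3 was the lowest under both treatments, the ranges overlapped, and the log2 fold change was -0.36 (SE 0.338), or 1.29-fold lower.

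Dclk1, the microtubule-binding kinase, varied most among DMSO libraries at P0. DMSO replicates 1 to 4 had 315, 709, 398 and 585 RPM of Dclk1, a coefficient of variation of 35.6%, and CompE replicates 1 to 4 had 119, 205, 164 and 186 RPM. The replicates kept one order under both treatments, from replicate 1 as the lowest through 3 and 4 to replicate 2 as the highest, and the CompE and DMSO ranges did not overlap. Means were 168 ± 37.3 RPM with CompE and 502 ± 179 RPM with DMSO (SD, n = 4 each), and the log2 fold change was -1.62 (SE 0.290), or 3.07-fold lower. At P6 Dclk1 had 210, 207 and 325 RPM in DMSO replicates 1 to 3 and 175, 260 and 305 RPM in the CompE replicates. Here the ranges overlapped almost fully, and the log2 fold change was 0.01 (SE 0.250).

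**Figure D1:**
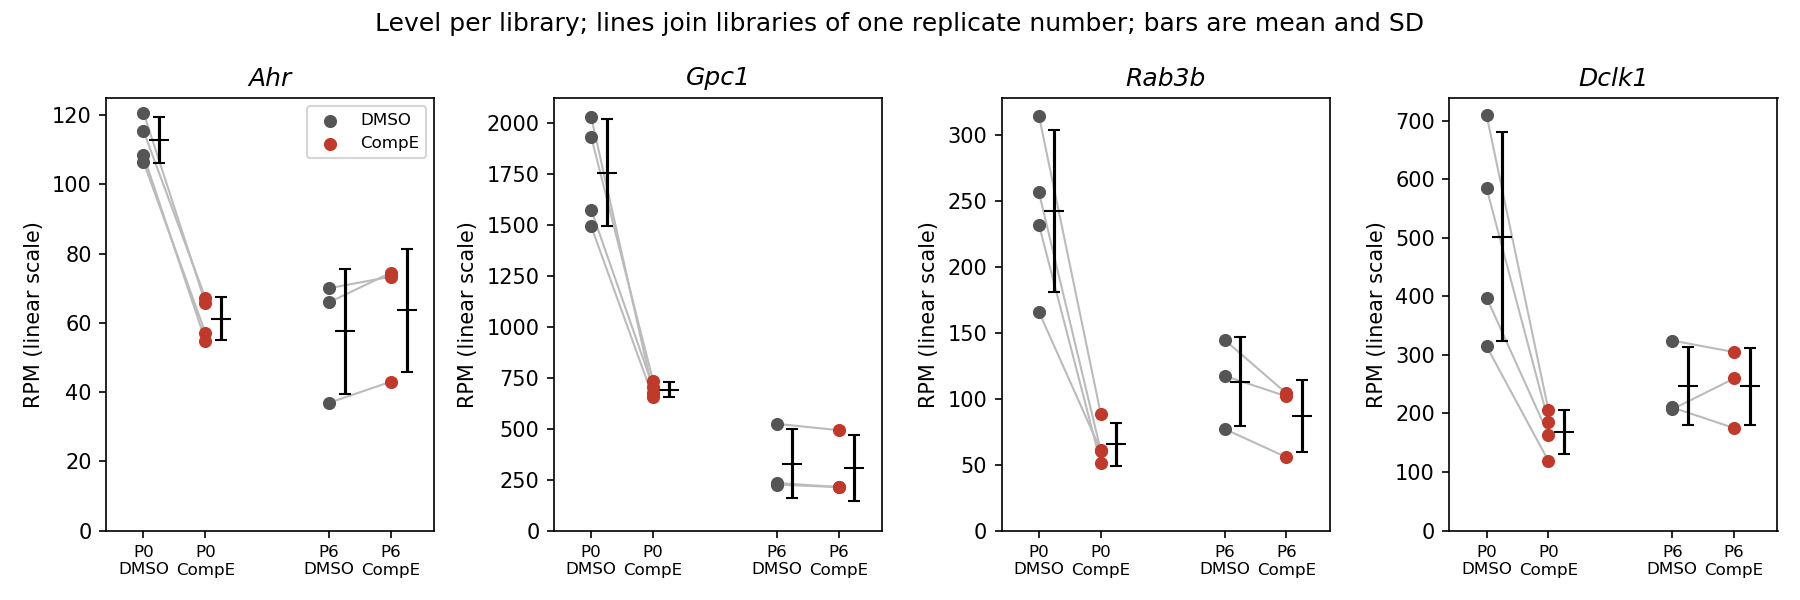
Level of Ahr, Gpc1, Rab3b and Dclk1 in RPM (linear axis from 0) in each library by age and treatment; points are libraries, lines join CompE and DMSO libraries of one replicate number, and bars give the mean and SD of 4 libraries at P0 and 3 at P6. The CompE points lie below all DMSO points at P0 for each gene (Gpc1 652 to 734 against 1491 to 2026 RPM), while the P6 ranges overlap.

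Read against all genes, 4.76% of the 15937 genes tested at P0 had every CompE library below every DMSO library, as all 4 members did, and at P6 4.14% of 15322 genes did, as 0 of the 4 members did. Of the 15937 genes, 0.985% were called lower at P0. Gpc1 and Rab3b met those thresholds, and so did Dclk1 with the replicate number as a block, under which 1.51% of genes were called lower. DESeq2 called Gpc1, Rab3b and Dclk1 lower, among 313 of 16988 genes tested. Ahr was called in none of these fits, because its decrease was under 2-fold. The choice of the genes used this contrast, so nothing is read from these counts. By log2 fold change at P0, 0.853% of tested genes were lower than Rab3b, 1.29% lower than Dclk1, 1.73% lower than Gpc1 and 4.20% lower than Ahr. At P6 no gene was called by edgeR, with 289 of 15322 at an unadjusted p under 0.05, and DESeq2 called 13.

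Replicate numbers track the labelled batches, and each CompE library could be set against the DMSO library of its number. In the 4 P0 pairs Ahr was at 50.6 to 58.1% of its DMSO level, Gpc1 at 33.4 to 44.7%, Rab3b at 22.1 to 36.6% and Dclk1 at 28.9 to 41.2%. Each gene was thus lower with CompE in 4 of 4 pairs, as were 11.7% of all genes tested. The log2 ratios had a mean of -0.89 ± 0.083 for Ahr, -1.33 ± 0.196 for Gpc1, -1.89 ± 0.326 for Rab3b and -1.53 ± 0.230 for Dclk1 (SD, n = 4 pairs). Pairing narrowed the spread most for Dclk1, whose SE at P0 went from 0.290 to 0.109 with the block (log2 fold change -1.57). In the 2 pairs that shared a batch, replicates 3 and 4, Rab3b had log2 ratios of -1.45 and -2.08.

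The pairs at P6 separated the 4 genes more than the group means did. Ahr was higher with CompE in 3 of 3 pairs, at 105 to 117% of DMSO, with log2 ratios of 0.18, 0.22 and 0.07. Gpc1 was lower in 3 of 3 pairs, by a small and even step to 91.6 to 94.4% of DMSO. Rab3b was also lower in 3 of 3 pairs, at 71.9 to 86.7% of DMSO, with log2 ratios of -0.21, -0.48 and -0.47. Dclk1 had no common direction, with 83.2% of DMSO in replicate 1 and 125% in replicate 2. Among all genes tested at P6, 17.1% were lower and 15.8% higher in every pair. With the block the P6 estimate was -0.37 (SE 0.100) for Rab3b, -0.09 (SE 0.0789) for Gpc1 and 0.17 (SE 0.102) for Ahr. None of the 4 was called at P6, where the block fit called 0 of all 15322 genes tested. The unpaired P6 estimates moved with single libraries: that of Gpc1 was -0.60 without CompE replicate 1 and 0.42 without DMSO replicate 1, and that of Rab3b was -0.11 without CompE replicate 3 and -0.60 without DMSO replicate 3. Likewise that of Ahr ranged from -0.07 without DMSO replicate 2 to 0.35 without CompE replicate 2, and that of Dclk1 from -0.16 without replicate 2 of both treatments to 0.22 without DMSO replicate 3.

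**Figure D2:**
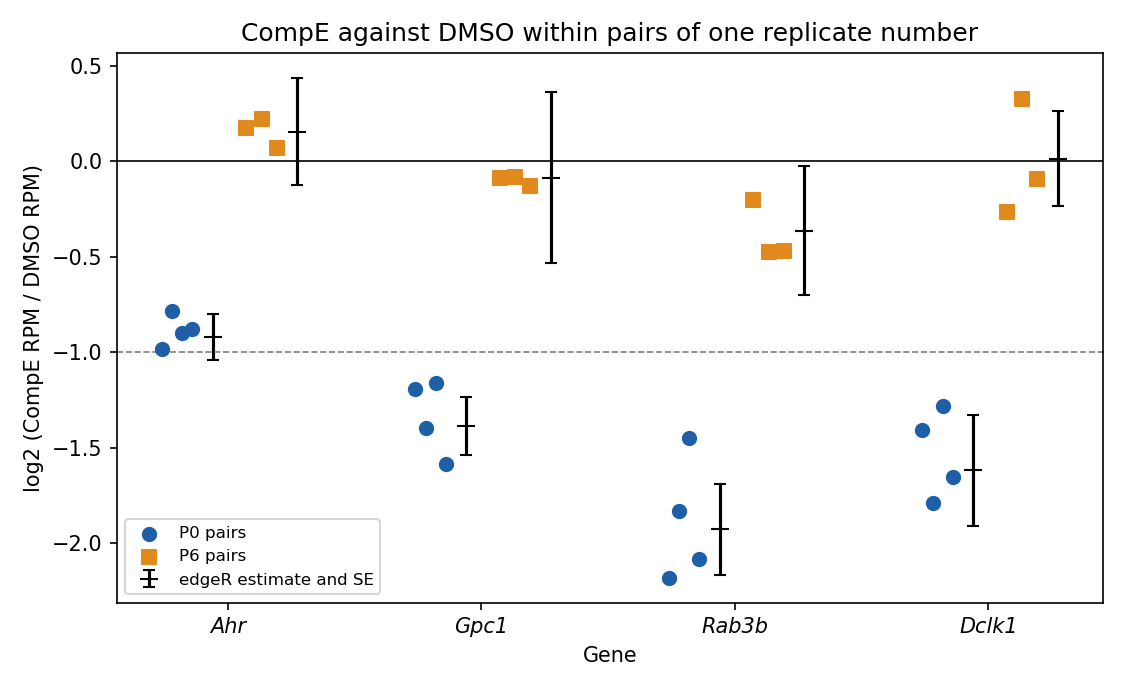
Log2 ratio of CompE to DMSO RPM in each pair of libraries with one replicate number (circles, 4 pairs at P0; squares, 3 pairs at P6), with the edgeR estimate and its SE as a bar; the dashed line marks a 2-fold decrease. All P0 ratios lie below 0, from -0.78 for Ahr to -2.18 for Rab3b, and the P6 ratios lie above 0 for Ahr, below 0 for Gpc1 and Rab3b, and on both sides for Dclk1.

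The response at P6 minus the response at P0, fitted over all 14 libraries, was 1.09 (SE 0.289) for Ahr, 1.31 (SE 0.454) for Gpc1, 1.58 (SE 0.432) for Rab3b and 1.64 (SE 0.428) for Dclk1 on the log2 scale. The value for Gpc1 was 0.80 without CompE replicate 1 of P6 and 1.82 without DMSO replicate 1 of P6. No gene of 17090 was called for this difference by edgeR, with 811 at an unadjusted p under 0.05. DESeq2 called 34 genes, and 0 of the 4 members were among them. With the replicate number as a block the SEs fell to 0.120 for Ahr, 0.134 for Gpc1, 0.177 for Rab3b and 0.180 for Dclk1, and 16 genes were called. Of these 16, 7 were positive (0.041% of genes tested), and they were the 4 members, Frzb, Pdzk1ip1 and Cxcl12. The members were picked for this pattern, so nothing is read from their place in that group.

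The mean DMSO level was lower at P6 than at P0 for each of the 4 genes. Of 17090 genes, 3.38% were called lower in this comparison, and of the members Gpc1 was called and Ahr, Rab3b and Dclk1 were not. Gpc1 had a mean of 1755 ± 263 RPM at P0 (SD, n = 4) and 327 ± 170 RPM at P6 (SD, n = 3), a log2 difference of -2.36 (SE 0.347) or 5.14-fold. For Rab3b the DMSO means were 242 ± 61.6 and 113 ± 34.0 RPM, a log2 difference of -1.02 (SE 0.311). For Ahr they were 113 ± 6.55 and 57.6 ± 18.1 RPM, a log2 difference of -0.91 (SE 0.208). Dclk1 had 502 ± 179 and 247 ± 66.9 RPM, a log2 difference of -0.97 (SE 0.308). Every P6 DMSO library was below every P0 DMSO library for Ahr, Gpc1 and Rab3b, as for 18.7% of genes, whereas for Dclk1 the highest P6 library (325 RPM) passed the lowest P0 library (315 RPM).

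The P0 level with CompE was also set beside the P6 DMSO level, a comparison in which 6.91% of genes were called in either direction and 0 of the 4 members. Ahr with CompE at P0 (61.2 ± 6.15 RPM) had a log2 difference of -0.01 (SE 0.204) from its P6 DMSO level. Gpc1 with CompE at P0 had a higher mean than in P6 DMSO, with a log2 difference of 0.97 (SE 0.328), and no library of either group crossed the other. Rab3b and Dclk1 with CompE at P0 had lower means than in P6 DMSO, with log2 differences of -0.91 (SE 0.301) and -0.65 (SE 0.299). Their ranges met only for Rab3b, where CompE replicate 2 at P0 (88.4 RPM) was above DMSO replicate 3 at P6 (77.0 RPM). Between the CompE groups, the log2 difference of P6 from P0 was 0.18 (SE 0.203) for Ahr, -1.05 (SE 0.328) for Gpc1, 0.56 (SE 0.302) for Rab3b and 0.68 (SE 0.299) for Dclk1. These comparisons share libraries with those above and add no separate evidence.

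Levels can be set between genes only per length, here RPM divided by kilobases of annotated exons. That length joins the exons of all annotated transcripts, 15296 bases over 15 transcripts for Dclk1 and 3524 bases over 4 for Rab3b. The order of the genes depends on it, and which transcripts were expressed was not tested. At P0 in DMSO the order was Gpc1 (mean 340), Rab3b (68.7), Dclk1 (32.8) and Ahr (18.3 RPM per kb), with no overlap between Gpc1, Rab3b and Dclk1 libraries and with the lowest Dclk1 library (20.6) above the highest Ahr library (19.6). After CompE at P0 the order of the means was the same, with Gpc1 at 134, Rab3b at 18.5, Dclk1 at 11.0 and Ahr at 9.93 RPM per kb. Dclk1 (7.75 to 13.4) and Ahr (8.90 to 10.9) then overlapped, so that these neighbours were not apart beyond their spread. At P6 the DMSO means were 63.4 for Gpc1, 32.0 for Rab3b, 16.2 for Dclk1 and 9.35 RPM per kb for Ahr, without overlap between neighbours. With CompE at P6 they were 59.3, 24.7, 16.1 and 10.3 RPM per kb, and Rab3b (15.8 to 29.5) overlapped Dclk1 (11.4 to 19.9), which in turn overlapped Ahr (6.98 to 12.1).

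**Figure D3:**
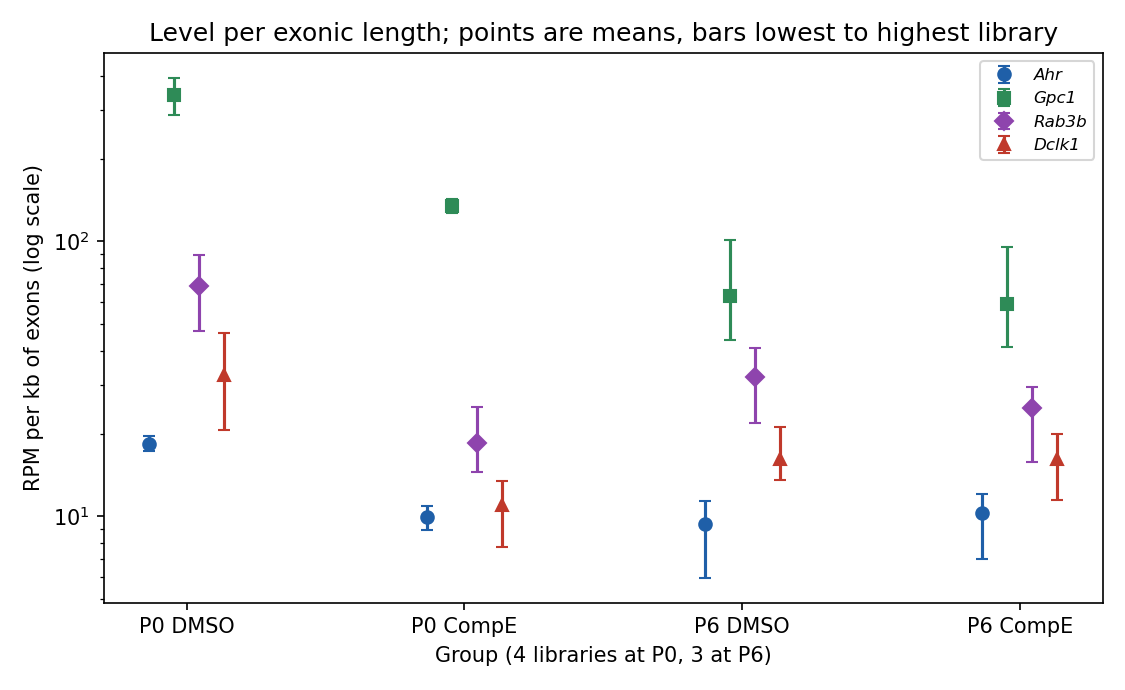
Level of the 4 genes per exonic length, in RPM per kilobase on a log axis, in each group; points are means and bars run from the lowest to the highest library (4 at P0, 3 at P6). Gpc1 is highest in all groups, and Dclk1 and Ahr come to overlapping ranges with CompE at P0 (7.75 to 13.4 and 8.90 to 10.9 RPM per kb).

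Within the P0 CompE group the libraries had an order that all 4 genes shared at its ends. Replicate 1 was the lowest and replicate 2 the highest library for each of Ahr, Gpc1, Rab3b and Dclk1. Replicate 1 was also the deepest library (44430063 reads) with the highest sum of HC markers (2205 RPM), and replicate 2 the shallowest (19415066 reads) with the lowest sum of HC markers in that group (1179 RPM). Whether depth or HC content bears on these levels was not tested. Over all 14 libraries the Pearson correlations of log2(RPM + 1) between the 4 genes were 0.467 (Gpc1 and Dclk1) to 0.799 (Ahr and Gpc1). After subtraction of the group means they were -0.33 to 0.50. The choice of the genes fixed a shared pattern between groups, so the first range is no finding.

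By the same measure over the 14 libraries, the genes most like each member among 13869 were listed without a test, since the libraries share age, batch and treatment. Ahr was most like Jmy (r = 0.952), Nos1 (0.908) and Pdgfrb (0.908). Of these, Nos1, the neuronal nitric oxide synthase, had log2 fold changes of -3.95 at P0 and -0.08 at P6. Those of Jmy were -0.57 and 0.23, and those of Pdgfrb -2.59 and -0.70. Gpc1 was most like Tcf7l1 (r = 0.972), Fzd2 (0.969) and Raver2 (0.965), with P0 log2 fold changes of -0.78, -0.38 and -1.17. Of these, Tcf7l1, a transcription factor, and Fzd2, a Frizzled receptor, act in Wnt signaling. Rab3b was most like Asrgl1 (r = 0.952), Psen2 (0.952) and Sptssa (0.950), with P0 log2 fold changes of -1.22, -1.18 and -0.85. Psen2 encodes presenilin 2, a catalytic subunit of γ-secretase, and had 14.5 RPM with CompE and 31.9 RPM with DMSO at P0 and 16.2 and 19.6 RPM at P6. Dclk1 was most like Frzb (r = 0.896), Fzd1 (0.880) and F2rl1 (0.865), with P0 log2 fold changes of -3.55, -1.14 and -1.21. Frzb, a secreted Wnt antagonist, had 32.7 RPM with CompE and 376 RPM with DMSO at P0 and 145 and 120 RPM at P6, and Fzd1 encodes another Frizzled receptor.

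Genes known to work with the members were then followed, in lists of 89 genes in all. At P0 1 of the 77 tested was called lower and 0 higher (1.3%, against 1.22% of all genes called in either direction), and at P6 0 of 76 were called. The median log2 fold change of the listed genes at P0 was -0.02, against 0.01 over all genes tested. The share called was close to that over all genes.

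Around Ahr, the 6 partners and chaperones (such as Arnt, Arnt2 and Hsp90ab1) gave 0 calls at either age, with a median log2 fold change of -0.03 at P0. Arnt had 83.3 RPM with CompE and 73.1 RPM with DMSO at P0, and its log2 fold change was 0.15 (SE 0.100, edgeR adjusted p = 0.621). Arnt2, a related partner, had a log2 fold change of 0.33 (SE 0.215, edgeR adjusted p = 0.604). Of 7 AHR target genes 5 were tested at P0 and 0 were called. Tiparp, which is induced by the receptor, stood at 144 RPM with CompE and 142 RPM with DMSO, while Cyp1a1, its classic target, had 0.221 and 0.539 RPM at P0 and 12.1 and 10.1 RPM at P6. Cyp1b1 had a log2 fold change of -0.75 (SE 0.717, edgeR adjusted p = 0.769). With the replicate block it was -0.83 (edgeR adjusted p = 0.0226), which was not called. Cyp1b1 was lower in 4 of 4 P0 pairs, as were 11.7% of genes. Ahrr, the AHR repressor, had a log2 fold change of 0.88 (SE 0.638, edgeR adjusted p = 0.657) at a level near 1 RPM.

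Among the 9 other glypicans and syndecans, 1 gene was called lower at P0 and 0 higher. Sdc1, the transmembrane heparan sulfate proteoglycan syndecan 1, had 33.1 ± 7.44 RPM with CompE and 86.3 ± 11.3 RPM with DMSO (SD, n = 4 each) and was lower in 4 of 4 pairs. Its log2 fold change was -1.41 (SE 0.189, edgeR adjusted p = 0.00303), and -0.38 (SE 0.390) at P6, where it was lower in 3 of 3 pairs. The difference between the ages was 1.05 for Sdc1 (edgeR adjusted p = 0.929, and 0.0817 with the replicate block). Gpc6, another glypican, missed the threshold with a log2 fold change of -1.02 (SE 0.192, edgeR adjusted p = 0.0164) and passed with the block (edgeR adjusted p = 0.000518). The list's median log2 fold change was -0.48 at P0 and -0.29 at P6, and 7 of its 9 genes were below 0 at P0. None of the 89 listed genes was called at P0 when CompE replicate 3 or 4, DMSO replicate 2 or 4, or both libraries of replicate 2, 3 or 4 were left out. The call of Sdc1 was thus not kept in those fits. Over all genes they called 1 to 92 lower, against 157 with all libraries, so the loss was not particular to Sdc1. The enzymes that build and modify heparan sulfate gave 0 calls of 20 tested. Hs3st3a1, a sulfotransferase, had 6.40 and 11.7 RPM at P0 with a log2 fold change of -0.91 (adjusted p in edgeR = 0.0241), and 6.35 and 3.15 RPM at P6, a log2 fold change of 1.03. Extl1, an exostosin-like glycosyltransferase, had a log2 fold change of 1.17 at P0 (adjusted p in edgeR = 0.153).

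Around Rab3b, the 8 other Rab3 genes and regulators gave 0 calls at either age. The other family members were present, with Rab3a at 30.1 RPM with CompE and 37.2 RPM with DMSO at P0 (log2 fold change -0.34), Rab3c at 10.1 and 9.19 RPM (0.09) and Rab3d at 54.7 and 42.9 RPM (0.32). Rab3gap2, a subunit of the Rab3 GTPase-activating complex, had a log2 fold change of -0.41 (SE 0.104, edgeR adjusted p = 0.0640), and Madd, an exchange factor for Rab3, of 0.37 (edgeR adjusted p = 0.484). Of 14 effectors tested, 0 were called. Sytl5, a synaptotagmin-like protein, had 0.496 and 2.21 RPM with a log2 fold change of -2.19 (SE 0.484, edgeR adjusted p = 0.0356). Rab27b, a secretory GTPase, had 45.8 and 22.0 RPM with 1.02 as its log2 fold change (SE 0.336, edgeR adjusted p = 0.174). With the replicate block it was 0.98 (edgeR adjusted p = 0.00244), short of 2-fold. At P6 Rab27b was higher in 3 of 3 pairs, as were 15.8% of genes.

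Around Dclk1, 3 other doublecortin genes were tested at P0 and 0 were called. Dclk2, the closest relative listed, had 44.5 RPM with CompE and 27.8 RPM with DMSO at P0, a log2 fold change of 0.63 (SE 0.200, edgeR adjusted p = 0.150), and 18.9 and 31.8 RPM at P6, a log2 fold change of -0.74. Dcdc2a, a cilium-associated member, had 3.32 and 0.862 RPM at P0 with a log2 fold change of 1.91 (SE 0.454, edgeR adjusted p = 0.0484). Dcx, which marks young neurons, was at or below a mean of 0.532 RPM in every group. The 12 neuronal microtubule genes gave 0 calls. Map1b had 242 and 147 RPM at P0 with a log2 fold change of 0.68 (SE 0.124, edgeR adjusted p = 0.0149), and Tubb3 had 3.22 and 1.56 RPM with a log2 fold change of 0.99 (SE 0.312, edgeR adjusted p = 0.147).

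The Notch target genes show how far known targets fell with CompE at each age, although the list was drawn in part from these samples. Each of the 7 had a lower mean DMSO level at P6 than at P0. Hes5 had 690 and 12.4 RPM in DMSO at P0 and P6, Nrarp 450 and 70.9 RPM, and Lfng 2791 and 2018 RPM. The fold changes thus start from unlike levels, and whether the inhibition itself differed between the ages was not tested. At P0 the 7 genes had log2 fold changes of -5.05 to -1.17 (median -2.70), and Hes1 (-2.70), Hey1 (-1.65), Hey2 (-1.17), Heyl (-3.36) and Nrarp (-3.11) were called lower. Hes5 and Lfng were called too with the replicate block and by DESeq2, which made it 7 of 7. At P6 they had -4.27 to -0.66 (median -1.61), 0 were called by edgeR and 3 by DESeq2, and 6 had an unadjusted p under 0.05. Of the 157 genes called lower at P0, 147 were tested at P6, where their median log2 fold change was -0.65. Of those 147, 56 were above -0.5 and 13 above 0 at P6. The number called lower at P0 was 1 without both libraries of replicate 4.

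**Figure D4:**
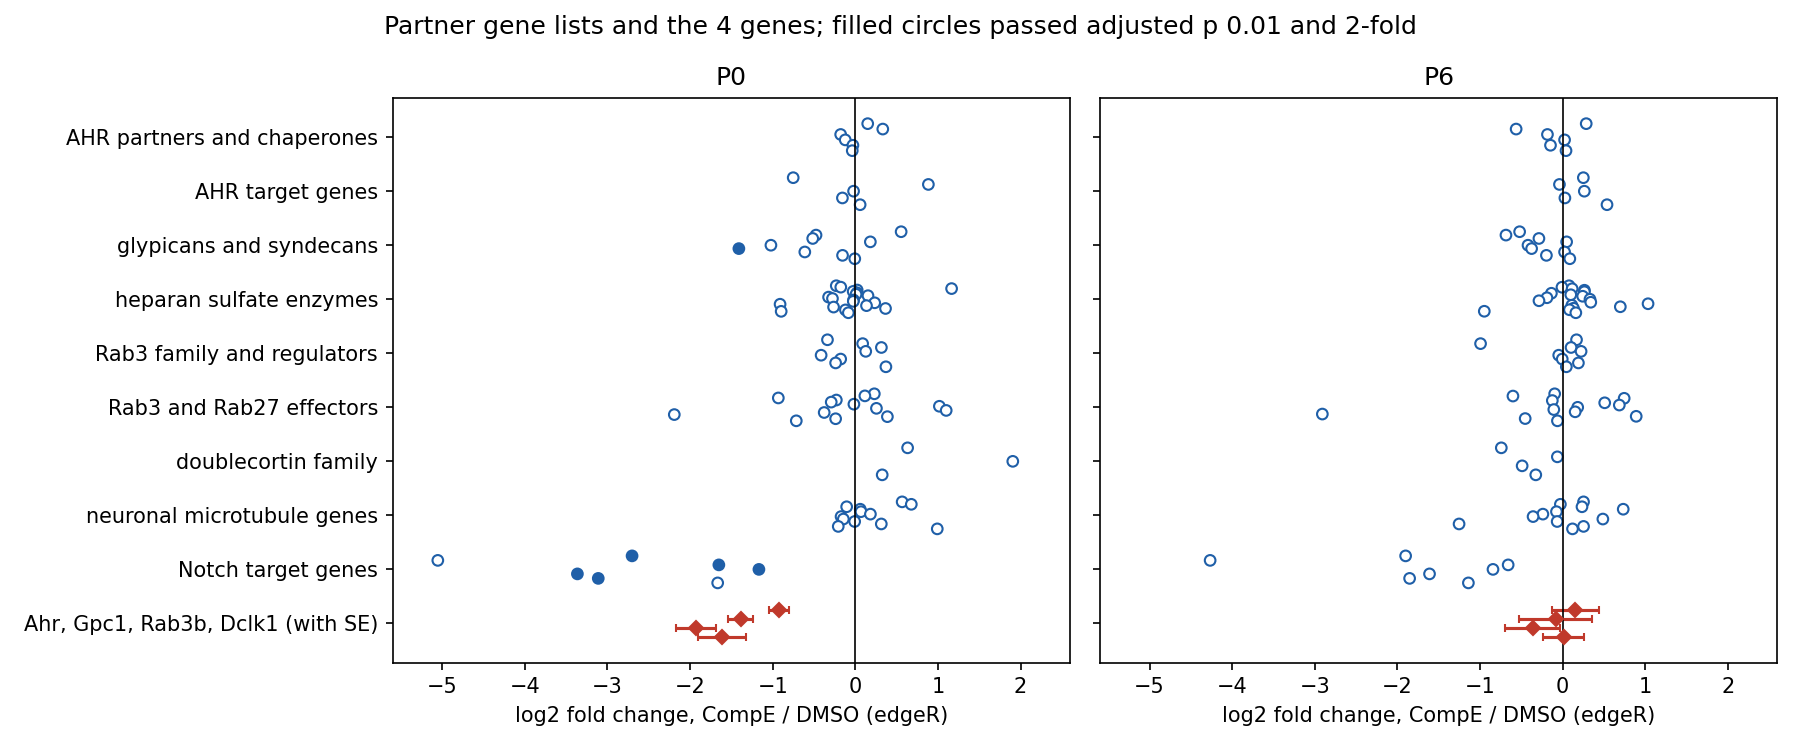
Log2 fold change of CompE to DMSO (edgeR) at P0 and P6 for the genes of each list (circles; filled where adjusted p was at most 0.01 with at least a 2-fold change) and for Ahr, Gpc1, Rab3b and Dclk1 from top to bottom (diamonds, with SE). At P0 Sdc1 and 5 Notch targets are filled while the 4 members lie between -0.92 and -1.93, and at P6 no circle is filled.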

How the data were processed

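RNA-seq counts of sorted SCs from 14 libraries were used. Per the labels and the methods, the authors trimmed reads with Trim Galore 0.6.0 and cutadapt 1.15, mapped them with STAR (2.7.0f in the submitters' processing notes, another version in the methods) to GRCm38/mm10 and assigned them to genes. The deposited counts are raw reads per gene symbol, 35976 symbols for each age, without normalization or filter, from libraries that were not pooled. Annotation release and strand setting are not given in the sources used here. Amplified reads without molecular identifiers are not independent molecules.

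RPM and RPM per kb of GENCODE exons were computed from the deposited counts. Log2 fold changes, SEs and Benjamini-Hochberg adjusted p-values came from edgeR 4.0.16 in R 4.3.3 (TMM, filterByExpr with a minimum count of 10, glmQLFit in its legacy form, glmQLFTest). The ages were fitted separately, by treatment alone, and the differences between ages over all 14 libraries. Genes were called with an adjusted p no higher than 0.01 and a change no smaller than 2-fold, the thresholds of the study. The study applied them in DESeq2 rather than edgeR and reported lower and higher genes at both ages. The fits at each age and of the difference between ages were run on simulated counts without replicate or batch effects. That run cannot show how the fits behave where such effects are present. No p-value is given for Ahr, Gpc1, Rab3b and Dclk1. The members and lists were chosen with earlier results of these data known. Named besides the members were every listed gene called at either age, the 2 listed genes with the largest absolute log2 fold change at P0 and a mean of at least 1 RPM where a list had under 2 calls, and the 3 genes most correlated with each member. A gene that this rule names is not reported here. Arnt, Tiparp, Cyp1a1, Rab3a, Rab3c, Rab3d, Dcx, Atoh1, Pou4f3, Sox2, Prox1, Tectb, Lum and the genes called only with a block were named after their values were seen. Marker lists are described by their sums.

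Deviations from group means correlated between CompE and DMSO libraries of one replicate number by 0.262 to 0.568 in the 4 pairs of P0 and 0.425 to 0.749 in the 3 of P6. Between unlike numbers the correlations were -0.49 to 0.228 at P0 and -0.55 to 0.114 at P6, so the gap at P0 was small. The numbers track the labelled batches, except that replicates 3 and 4 of P0 share a batch, and were taken as pairs in the block fits. Replicate libraries differed by more than sampling noise (lowest chi-square over its degrees of freedom, 20.5). Alternatives were DESeq2 1.42.0, its size factors within edgeR, library totals, no filter, a block of replicate number or of batch, one fit of all 14 libraries, and leaving out each library or pair. The newer quasi-likelihood method of edgeR was added after seeing the data.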

Additional observations from a re-analysis of the deposited data

Results flagged for a closer look

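The Ahr pairs lay on opposite sides of 0 at the 2 ages. Ahr was lower with CompE in 4 of 4 P0 pairs, with log2 ratios of -0.98 to -0.78, and higher in 3 of 3 P6 pairs, with log2 ratios of 0.07 to 0.22. At P6 the fitted value was 0.15 (SE 0.281), or 0.17 (SE 0.102) with the replicate block. Neither of these edgeR fits called any gene at this age. The unpaired value became -0.065 without DMSO replicate 2, and 15.8% of all genes were higher in every P6 pair. The response at P6 exceeded that at P0 by 1.09 on the log2 scale (SE 0.289). These values chose Ahr, so no test of the difference is read here, although the fit with the replicate block over all genes called it and DESeq2 did not. None of the 8 sets of 4 P0 values (4 genes, 2 treatments) held a library that stood apart from the other 3 by Dixon's criterion. The P6 sets of 3 values were not examined in this way.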

How the results depend on the processing

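For the 4 genes, other normalizations, no filter, DESeq2, the blocks, one fit of all libraries and the newer method kept the size of the response within the spread of replicates in all 32 values at P0, 28 at P6, 24 for the difference and 16 for DMSO, with a change of sign in 1, Dclk1 at P6 (-0.0048 with library totals). Leaving out libraries gave -0.98 to -0.85 for Ahr, -1.48 to -1.30 for Gpc1, -2.13 to -1.75 for Rab3b and -1.81 to -1.38 for Dclk1 at P0 (the last without DMSO replicate 2). At P6 it gave -0.065 to 0.35 for Ahr, -0.60 to 0.42 for Gpc1, -0.60 to -0.11 for Rab3b and -0.16 to 0.22 for Dclk1, and changed the sign of 9 of 36 values (Ahr 1, Gpc1 3 and Dclk1 5). For the difference it gave 0.87 to 1.26 for Ahr, 0.80 to 1.82 for Gpc1, 1.33 to 1.84 for Rab3b and 1.41 to 1.84 for Dclk1. For DMSO at P6 against P0 it gave -1.03 to -0.69, -2.86 to -2.14, -1.28 to -0.77 and -1.16 to -0.73 in the same order of genes.

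Counts of called genes depended more on the setting. Against 157 lower and 38 higher genes at P0, DESeq2 called 313 and 128, the replicate block 241 and 109, the batch block 102 higher, no filter 60 higher, the newer method 62 higher, and one fit of all 14 libraries 90 lower. Leaving out libraries gave 1 to 181 lower and 0 to 44 higher, with the fewest without both libraries of replicate 4. Of the listed partner genes 1 was called at P0, against 2 with no filter, 4 with DESeq2 (Sdc1, Gpc6, Sytl5 and Dcdc2a), 2 with the replicate block, 2 with the batch block, 0 in one fit of all 14 libraries and 0 to 2 with libraries left out. At P6, where edgeR called 0, DESeq2 called 11 lower and 2 higher, and leaving out libraries left 0. For the difference between ages, where edgeR called 0, DESeq2 called 15 lower and 19 higher, the replicate block 9 and 7, the newer method 1 and 1, no filter 1 lower, and leaving out libraries 0 to 1 in each direction. For DMSO at P6 against P0, 578 were lower and 640 higher, DESeq2 called 1104 lower, and leaving out libraries gave 303 to 611 lower and 477 to 649 higher. The causes were not tested. With the replicate numbers as pairs the block changed the call of Dclk1 at P0 and of the 4 members for the difference, as given beside those values.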
